A study of Mus musculus with 4 samples.

Results

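Fatty acid oxidation was followed through 9 genes among 31054 features counted in single cells of aged mouse kidney. They were 2 regulators, Ppara and Ppargc1a, and 7 enzymes, Cpt1a, Cpt2, Acadm, Acadl, Ehhadh, Hadha and Acaa1b. The genes were taken by symbol from the feature tables, all 9 were found, and each symbol stood on a single identifier. All mice were C57BL/6 males, 19 months of age, and were given either BPTES, an inhibitor of the glutaminase GLS1, or its vehicle DMSO over 1 month. Each group had 2 libraries. For each library the kidney was digested with liberase, and 20000 CD45-negative cells (tubule, vessel and stroma) were pooled with 9000 CD45-positive cells (leukocytes), so the sort sets the ratio of the 2 compartments. No label says how many animals gave a library or that the libraries of a group came from separate animals. The p-values therefore measure no spread between animals. They rest on the spread between these libraries, estimated in part from all genes together.

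Proximal tubule cells reabsorb most of the filtered load and are known for relying on fatty acids as fuel. Long-chain fatty acids are handed to carnitine by CPT1A at the outer mitochondrial membrane, handed back to coenzyme A by CPT2 inside, and shortened in cycles that start with acyl-CoA dehydrogenases and end with a thiolase. Peroxisomes run a parallel cycle with enzymes of their own, PPARA is a fatty acid-sensing nuclear receptor that switches on many genes of both cycles, and PPARGC1A (PGC-1alpha) is a transcriptional coactivator of mitochondrial genes.

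In the mouse build mm10 (GRCm38), with GENCODE vM21 gene bounds, the regulators lie at chr15:85734983-85802819 (Ppara, ENSMUSG00000022383, plus strand) and chr5:51454250-51567726 (Ppargc1a, ENSMUSG00000029167, minus strand). The carnitine acyltransferases lie at chr19:3322334-3385733 (Cpt1a, ENSMUSG00000024900, plus strand) and chr4:107903981-107923610 (Cpt2, ENSMUSG00000028607, minus strand). The mitochondrial enzymes lie at chr3:153922357-153944632 (Acadm, ENSMUSG00000062908), chr1:66830839-66863277 (Acadl, ENSMUSG00000026003) and chr5:30118304-30155162 (Hadha, ENSMUSG00000025745), all on the minus strand. The peroxisomal enzymes lie at chr16:21761287-21787807 (Ehhadh, ENSMUSG00000022853) and chr9:119148023-119157093 (Acaa1b, ENSMUSG00000010651), both on the minus strand. Hadha overlaps Garem2 and Acaa1b overlaps Dlec1 on the opposite strand, and Ppargc1a, Acadl and Ehhadh overlap predicted genes (Gm models). Of the 50-base windows of the Acaa1b transcript, 583 of 1640 (35.5%) are identical in its paralog Acaa1a, and 38.8% of those in its last 500 bases, so the split of reads between these 2 genes is uncertain.

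The 6 genes that differed between the groups in proximal tubule S1-S2 cells (the first stretches of the proximal tubule) include 5 with at least 129 exon-free bases within the 150 before the start of transcription. These 5 stretches are printed from RefSeq (GRCm38.p6), 5′ to 3′ on the strand of the gene and ending at or near its start, because their genes passed the treatment test in that segment. They lie at chr5:51567727-51567875 (Ppargc1a), chr4:107923611-107923739 (Cpt2), chr1:66863310-66863459 (Acadl), chr16:21787835-21787984 (Ehhadh) and chr9:119157094-119157243 (Acaa1b). Capitals mark the GC box GGGCGG, the CCAAT box CCAAT, the nuclear receptor half-site AGGTCA and the TATA box TATAAA, each on either strand.
Ppargc1a: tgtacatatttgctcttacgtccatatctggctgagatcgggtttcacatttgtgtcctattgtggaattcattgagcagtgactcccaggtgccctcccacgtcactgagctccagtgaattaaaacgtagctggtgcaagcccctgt
Cpt2: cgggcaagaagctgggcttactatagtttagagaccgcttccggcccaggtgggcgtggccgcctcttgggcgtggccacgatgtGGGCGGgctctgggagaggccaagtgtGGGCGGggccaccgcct
Acadl: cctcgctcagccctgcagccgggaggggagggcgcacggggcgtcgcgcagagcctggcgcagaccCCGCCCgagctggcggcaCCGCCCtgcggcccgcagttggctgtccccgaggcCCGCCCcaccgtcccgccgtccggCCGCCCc
Ehhadh: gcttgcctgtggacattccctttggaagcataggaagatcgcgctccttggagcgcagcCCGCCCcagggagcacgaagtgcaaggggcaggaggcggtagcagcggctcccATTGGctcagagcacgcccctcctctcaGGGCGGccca
Acaa1b: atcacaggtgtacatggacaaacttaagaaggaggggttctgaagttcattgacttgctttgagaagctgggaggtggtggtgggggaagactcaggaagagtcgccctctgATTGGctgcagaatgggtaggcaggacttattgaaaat
In the 250 bases before the start, GGGCGG stood in 6 of the 9 genes (Ppara, Cpt1a, Cpt2, Acadl, Ehhadh and Hadha), against 32.7% of 32851 RefSeq promoters of this length. Acadl held 4 copies, within 84 bases of its start. CCAAT stood in Cpt1a, Ehhadh and Acaa1b (33.8% of all promoters), and in both Ehhadh and Acaa1b a copy began 38 bases before the start. AGGTCA stood in Acadm and Cpt1a (14% of all promoters), and TATAAA (12.4%) stood in 0 of the 9. The palindromic motif of NRF1 stood in Ppara alone among the 9 (3.74%). The motif TNAAGGTCA of estrogen-related receptors (1.14%) and the direct repeat of AGGTCA with 1 base between and at most 2 mismatches (3.24%) stood in 0 of the 9. The searches covered both strands, and motifs may overlap (AGGTCA lies within the last 2). A match or its absence is a description of letters in these 250 bases only, and bases farther away were not searched. The 250 bases held 68% G and C in Acadl, 60.4% in Ehhadh, 56.8% in Cpt2, 48% in Ppargc1a and 41.6% in Acaa1b, beside a median of 52.4% over all promoters.

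The libraries held 249881074 to 297947661 UMIs (unique molecular identifiers, each standing for a captured transcript). After filters 46738 cells remained, 10849 to 12076 a library, and each pair of libraries shared 90 to 114 barcodes, 29 to 45 of them among the cells kept in both. Clusters were named from marker genes, so each class name stands for cells like the type named. Proximal tubule cells were the most numerous class (21928 cells) and were split into S1-S2 (17743 cells), S3 (3658) and injured cells (527). The 6 S1-S2 markers summed to 4949 to 5698 CPM (counts per 1000000) in S1-S2 and 1866 to 2511 in S3. The 6 S3 markers summed to 54.5 to 75.8 CPM in S1-S2 and 1105 to 1400 in S3, and 0 markers of either list were at 0.

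A level is given here as CPM, the UMIs of a gene per 1000000 UMIs summed over the cells of a class in a library. Classes were cut from the same cells, so levels are described without a test, although 104 genes of fatty acid oxidation, the 9 included, were left out of the clustering. Of the 9 genes, 6 had their highest mean in a segment of the proximal tubule, among 14 classes and segments. These were the 11 other classes with at least 50 cells in each library and the 3 proximal tubule segments. The injured segment had as few as 27 cells in a library. The exceptions were Ppargc1a, Cpt1a and Hadha, which were highest in later tubule segments. The count of 6 was the same at a mitochondrial limit of 25%, with doublets kept and with mitochondrial genes left out of the total.

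**Figure D1:**
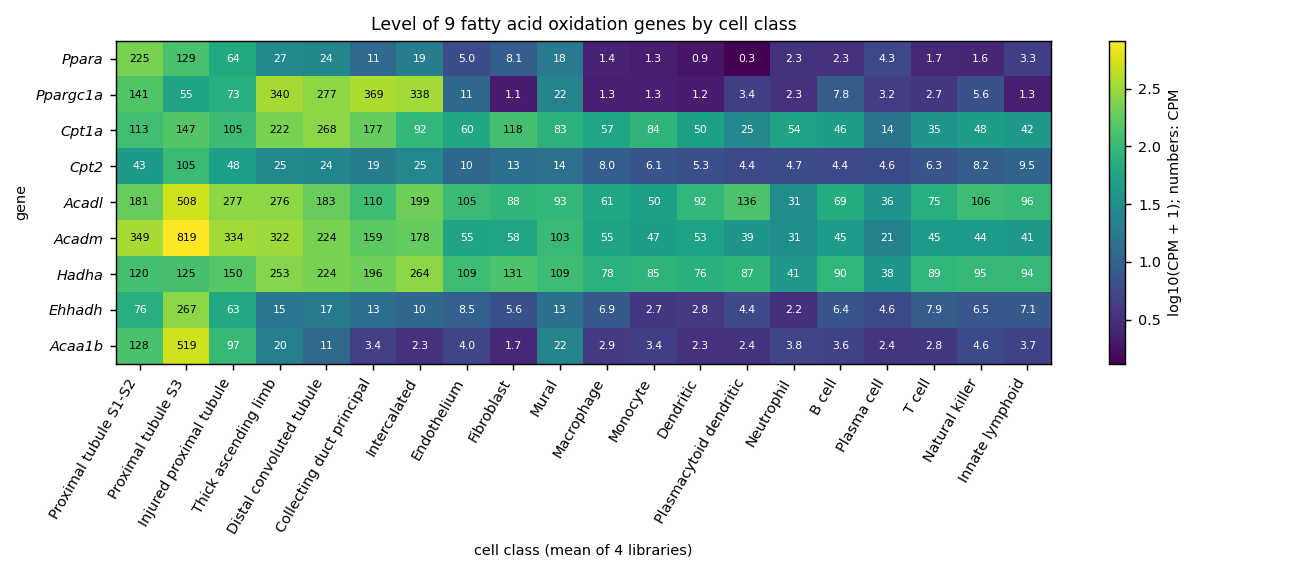
Mean level over 4 libraries of the 9 genes (vertical axis, ordered by role) in 20 cell classes and segments (horizontal axis); the colour scale is log10(CPM + 1) and each cell carries the CPM. Acadm, Acadl, Cpt2, Ehhadh and Acaa1b are highest in S3, Ppara in S1-S2, and Ppargc1a, Cpt1a and Hadha in segments after the proximal tubule.

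Ppara, the receptor, had 185 to 265 CPM in S1-S2 and 113 to 146 in S3, without overlap between these ranges over the 4 libraries. It then stepped down through injured proximal tubule (50.4 to 71.8 CPM), thick ascending limb (18.7 to 37.0), distal convoluted tubule (19.1 to 31.2) and collecting duct principal cells (8.24 to 14.4), and only thick ascending limb and distal convoluted tubule overlapped among these neighbours. Ppargc1a, the coactivator, was higher in the later segments than in the proximal tubule, and within the proximal tubule it was higher in S1-S2 than in S3, as Ppara was. Its level was 247 to 425 CPM in collecting duct principal cells, 271 to 404 in thick ascending limb and 234 to 342 in distal convoluted tubule, which did not differ beyond their spread. It was 115 to 168 CPM in S1-S2 and 47.5 to 64.4 in S3. Intercalated cells, with as few as 46 cells in a library, had 323 to 360 CPM of Ppargc1a and 12.6 to 32.0 of Ppara.

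The carnitine acyltransferases were ordered differently from each other. Cpt1a, the rate-setting entry enzyme, had 238 to 285 CPM in distal convoluted tubule, 215 to 228 in thick ascending limb, 164 to 199 in collecting duct principal cells, 132 to 165 in S3 and 105 to 120 in S1-S2. Only collecting duct and S3 overlapped among these neighbours. Cpt2 had 92.5 to 116 CPM in S3, above injured proximal tubule (28.1 to 66.3), S1-S2 (34.6 to 50.1) and thick ascending limb (20.9 to 34.5).

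Acadm, the medium-chain acyl-CoA dehydrogenase, had 718 to 921 CPM in S3 and 285 to 396 in S1-S2, which overlapped with injured proximal tubule (260 to 404). Acadl, the long-chain acyl-CoA dehydrogenase, had 462 to 569 CPM in S3 and 133 to 220 in S1-S2. In thick ascending limb Acadl had 244 to 307 CPM, above each S1-S2 value. Hadha, the alpha subunit of the mitochondrial trifunctional protein, varied least among the segments. It had 223 to 271 CPM in thick ascending limb, 118 to 130 in S3 and 112 to 126 in S1-S2, and each class overlapped the next in its order from thick ascending limb down to macrophages.

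Ehhadh, the peroxisomal bifunctional enzyme, had 184 to 339 CPM in S3 and 49.8 to 99.3 in S1-S2. Outside the proximal tubule it reached 23.95 CPM at most, in distal convoluted tubule. Acaa1b, a peroxisomal thiolase, had 432 to 601 CPM in S3, 78.7 to 167 in S1-S2 and at most 33.3 in thick ascending limb. Both genes thus had their highest values in S3 in each library.

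Within a library, Acaa1b was 4.21 times as high in S3 as in S1-S2 (geometric mean over 4 libraries, range 2.79 to 5.57). The ratio was 3.57 for Ehhadh (2.99 to 4.29), 2.85 for Acadl (2.16 to 3.59), 2.43 for Cpt2 (1.92 to 2.85) and 2.35 for Acadm (1.88 to 2.76). Cpt1a (1.29, range 1.20 to 1.42) and Hadha (1.05, range 0.999 to 1.07) differed little between the segments, and the Hadha range includes equality. Over all clusters of a segment the regulators were the other way round. Ppargc1a was 2.52 times (1.80 to 3.54) and Ppara 1.73 times (1.27 to 2.36) as high in S1-S2 as in S3. The Ppara difference was not seen in every set of clusters, as given below. For Acaa1b, Acadl, Acadm, Cpt2 and Ehhadh the ratio of S3 over S1-S2 was larger in both BPTES libraries than in either DMSO library, and for Ppara and Ppargc1a it was smaller in both.

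Free RNA from broken proximal tubule cells can give UMIs in other classes, so each level was set beside 20 proximal tubule markers measured the same way. In macrophages these markers had a median of 1.63% of their proximal tubule level, and Ppara (0.67%), Ppargc1a (1.08%) and Acaa1b (1.40%) lay below it. In T cells the median was 1.74%, and Ppara (0.85%) and Acaa1b (1.32%) lay below it. These levels were not above the marker median, so background and expression cannot be told apart there. The marker range was wide, up to 831% in macrophages and 1932% in T cells (Bcat1 in both). Hadha stood at 64.2% of its proximal tubule level in macrophages and 73.2% in T cells, Cpt1a at 47.8% and 29.5%, and Acadl at 24.3% and 29.9%, all above the marker median. In thick ascending limb the marker median was 5.49%, and all 9 genes lay above it, from Acaa1b (9.02%) and Ppara (13.7%) to Ppargc1a (291%).

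Across the 18 named classes the genes whose levels moved most nearly like each of the 9 were listed by Pearson's r of log2(CPM + 1), among 13846 genes. This is a description over 18 classes that share the same 4 libraries. Ppargc1a was closest to Esrrg (0.98), the orphan nuclear receptor ERR gamma, then Cdkl1 and Elmo3 (both 0.98). Acaa1b was closest to AI314278 (0.99), Selenbp2 (0.99) and Kap (0.98), Ppara to Hoga1, Steap2 and Hoxb3os (all 0.96), and Ehhadh to Gstt2 (0.96), Scrn2 and Gcdh (both 0.95). Cpt2 was closest to Naprt, Aldh6a1 and Fahd1 (all 0.97), Acadm to 0610009B22Rik, Acat1 and Fahd1 (all 0.97), Acadl to Tmem70 (0.96), Adh5 and Mrpl39 (both 0.95), and Hadha to Dlat (0.97), Mtx2 and Ppip5k1 (both 0.96). Cpt1a had the lowest likeness to any gene, with Hcfc1r1 at 0.91, 1110065P20Rik at 0.89 and Ap2m1 at 0.89. Among the 9 themselves r was highest for Cpt2 with Acadm (0.94) and with Ppara (0.93), and lowest for Hadha with Acaa1b (0.27).

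The proximal tubule clusters were divided in 2 by Malat1, a long non-coding RNA retained in the nucleus. All of the 9 genes but Ehhadh differed along the same line. Cluster 48 of S1-S2 (91 cells) lay between the 2 kinds, at 9225 CPM of Malat1, and counts as poor here. In S1-S2, 3 clusters with 4749 cells (26.8%) had 78836 CPM of Malat1 and the other clusters 772 CPM. In S3, 1 cluster with 831 cells (22.7%) had 58453 CPM and the other 352 CPM. This division at 20000 CPM was chosen after seeing the data.

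Ppara was 8.15 times as high in the Malat1-rich as in the Malat1-poor S1-S2 clusters (geometric mean, range over libraries 6.78 to 9.05), and Ppargc1a was 7.09 times as high (6.34 to 7.98). Cpt1a was 1.56 times as high (1.33 to 1.79). The remaining enzymes were higher where Malat1 was poor. The ratio of poor over rich was 2.97 for Acaa1b (2.33 to 3.53), 2.96 for Acadl (2.55 to 3.29), 2.50 for Acadm (2.24 to 2.75), 2.02 for Cpt2 (1.55 to 2.36) and 1.49 for Hadha (1.41 to 1.55). For Ehhadh it was 1.09, and its range (0.716 to 1.38) crossed equality. In S3 the regulators were again higher where Malat1 was rich, Ppargc1a 7.13 times and Ppara 5.92 times as high, and Cpt1a was 1.85 times as high (1.54 to 2.07). Ehhadh was 1.37 times as high there, and its range (0.846 to 2.53) again crossed equality. The S3 enzymes Acadl (2.80), Acadm (2.59), Acaa1b (2.38), Cpt2 (2.21) and Hadha (1.39) were higher where Malat1 was poor. In each segment the regulators and most of the enzymes thus had their highest CPM in different clusters. Malat1-rich S1-S2 clusters 2, 11 and 22 had medians of 31350, 27560 and 16030 UMIs a cell and 8.345%, 8.141% and 24.67% mitochondrial. Malat1-poor clusters 0, 1, 5 and 7 had 13580, 7206, 16320 and 20260 UMIs and 29.29%, 31.59%, 14.56% and 4.117%. In S3 medians were 37670 UMIs where Malat1 was rich and 22470 where poor. Ppargc1a, Ppara and Cpt1a span the most bases of the 9 (113.5, 67.84 and 63.4 kb). The part of depth, mitochondrial share or span in these ratios was not tested. Within the Malat1-poor clusters Ppara had 47.5 to 59.5 CPM in S1-S2 and 47.4 to 55.1 in S3, and these ranges overlapped. Within the Malat1-rich clusters it had 403 to 534 CPM against 274 to 350, without overlap. Ppargc1a was higher in S1-S2 in both sets, with 37.6 to 42.3 CPM against 15.2 to 21.4 where Malat1 was poor.

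**Figure D2:**
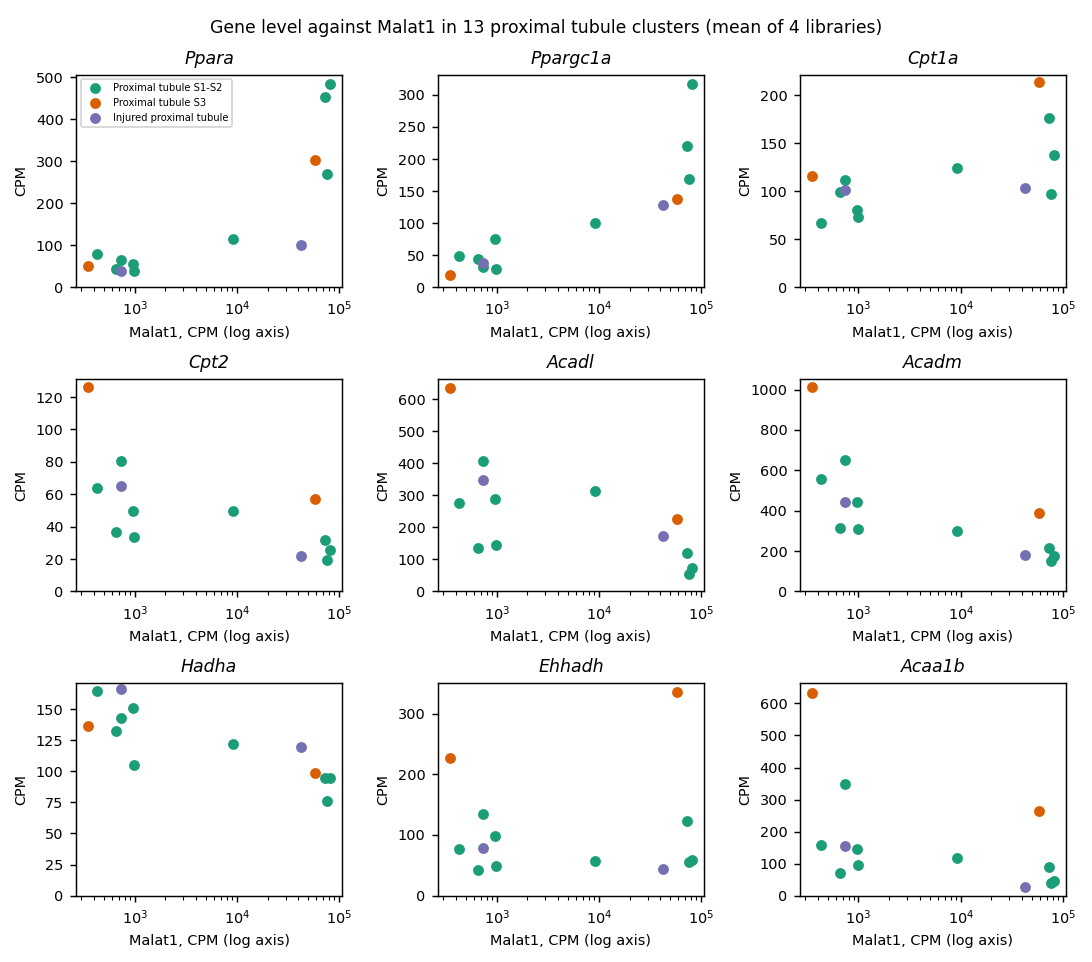
Level of each gene (vertical axis, CPM) against the level of Malat1 (horizontal axis, CPM, log scale) in 13 proximal tubule clusters, each point a mean of 4 libraries, coloured by segment. The Ppara and Ppargc1a points of S1-S2 and S3 are high at the right, where Malat1 is above 20000 CPM, and the Acadl, Acadm and Acaa1b points at the right overlap those at the left, although within S3 the Malat1-rich point lies below the Malat1-poor one (263 against 634 CPM for Acaa1b).

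The first comparison asked how these genes differed between BPTES and DMSO over all proximal tubule cells. Ppara had 221 and 241 CPM under BPTES against 175 and 164 for DMSO, and Ppargc1a had 137 and 149 against 99.1 and 98.8. Both regulators were higher in each BPTES library. Ehhadh had 119 and 70.1 CPM against 133 and 161, Acaa1b 232 and 132 against 260 and 242, and Acadl 263 and 183 against 303 and 285. These 3 enzymes were lower in each BPTES library, with BPTES replicate 2 far below the other libraries. By edgeR's quasi-likelihood test 0 of the 9 genes passed an adjusted p of 0.05, while 9 of all 16407 genes tested did (0.0549%), and 2 of the 9 had an unadjusted p under 0.05, beside 20.6% of all genes. Those 2 were Ppargc1a (log2 change 0.64, SE 0.10, edgeR adjusted p 0.0875) and Ppara (0.56, SE 0.10, edgeR adjusted p 0.112), and DESeq2 called both of them, with 7.03% of all genes. Ehhadh (-0.55), Acaa1b (-0.37), Acadl (-0.30), Cpt2 (-0.23) and Acadm (-0.11) had negative log2 values, Cpt1a (-0.06) and Hadha (-0.00) lay near 0, and none of these 7 had an unadjusted p under 0.05. Without BPTES replicate 1, Ppargc1a (0.78), Ppara (0.70) and Acaa1b (-0.73) passed by edgeR, where 3.64% of all genes were called. Without DMSO replicate 1, Ppargc1a (0.62), Ppara (0.59) and Ehhadh (-0.69) passed, where 10.5% of all genes were called, and without DMSO replicate 2 Ppargc1a (0.66) alone, where 6.72% were. Without BPTES replicate 2, 0 of the 9 (2 at an unadjusted p under 0.05, beside 9.09% of all genes) and 0.0175% of all genes passed by edgeR, and Acaa1b was at -0.06 and Ehhadh at -0.26.

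The libraries also differed in the make-up of this class. S1-S2 cells were 82.1% and 88.2% of proximal tubule cells under BPTES and 78.2% and 74.9% under DMSO. S3 cells, in which Acaa1b and Ehhadh are highest, were 17.4% and 11.3% against 18.2% and 19.9%. Injured cells were 0.559% and 0.499% against 3.6% and 5.18%. The treatment was therefore compared within segments.

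S1-S2 cells had 2 of the 9 genes higher and 4 lower under BPTES (edgeR adjusted p under 0.05), and 3 did not pass. Of all 15585 genes tested in S1-S2, 13% were called, 7.4% higher and 5.61% lower. The median log2 fold change of the 9 was -0.25, beside -0.01 over all genes. The 9 were chosen with earlier results of these data known, so this contrast is a description. DESeq2 called 7 of the 9, adding Acadm, and 16.3% of all genes. Fold changes come from UMI sums after TMM scaling, and the levels beside them are plain CPM.

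Both regulators rose. Ppara had 259 and 265 CPM under BPTES against 191 and 185 for DMSO. The log2 fold change was 0.56 (SE 0.08, 95% interval 0.39 to 0.74, edgeR adjusted p 0.0163). Ppargc1a had 167 and 168 CPM under BPTES against 115 and 116 for DMSO, a log2 change of 0.62 (SE 0.08, 95% interval 0.45 to 0.79, edgeR adjusted p 0.0134). For each regulator the 2 libraries of a group lay close together and the groups did not overlap.

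The carnitine acyltransferases differed in their result. Cpt2 had 39.7 and 34.6 CPM under BPTES against 49.1 and 50.1 for DMSO. It fell by 0.34 on the log2 scale (SE 0.08, edgeR adjusted p 0.0347), without overlap. Cpt1a had 110 and 105 CPM against 120 and 116, and its log2 fold change of -0.05 (SE 0.07, 95% interval -0.21 to 0.10, edgeR adjusted p 0.618) did not pass.

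Of the mitochondrial enzymes only Acadl passed. Acadl had 158 and 133 CPM under BPTES against 220 and 214 for DMSO, and it fell by 0.50 on the log2 scale (SE 0.08, 95% interval -0.68 to -0.32, edgeR adjusted p 0.0200). Both BPTES libraries lay well below both DMSO libraries. Acadm had 333 and 285 CPM against 396 and 382, without overlap, and missed the threshold (log2 change -0.25, SE 0.08, edgeR adjusted p 0.0614). Hadha had 119 and 112 CPM against 126 and 122, and its groups overlapped after scaling (log2 change -0.03, SE 0.07, 95% interval -0.18 to 0.13, edgeR adjusted p 0.815).

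Both peroxisomal enzymes fell. Ehhadh had 65.0 and 49.8 CPM under BPTES against 89.3 and 99.3 for DMSO, and it fell by 0.64 on the log2 scale (SE 0.12, 95% interval -0.92 to -0.36, edgeR adjusted p 0.0269). Acaa1b had 108 and 78.7 CPM against 157 and 167, and it fell by 0.73 on the log2 scale (SE 0.13, 95% interval -1.02 to -0.43, edgeR adjusted p 0.0257). For both genes BPTES replicate 2 was the lowest library, and the groups did not overlap.

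**Figure D3:**
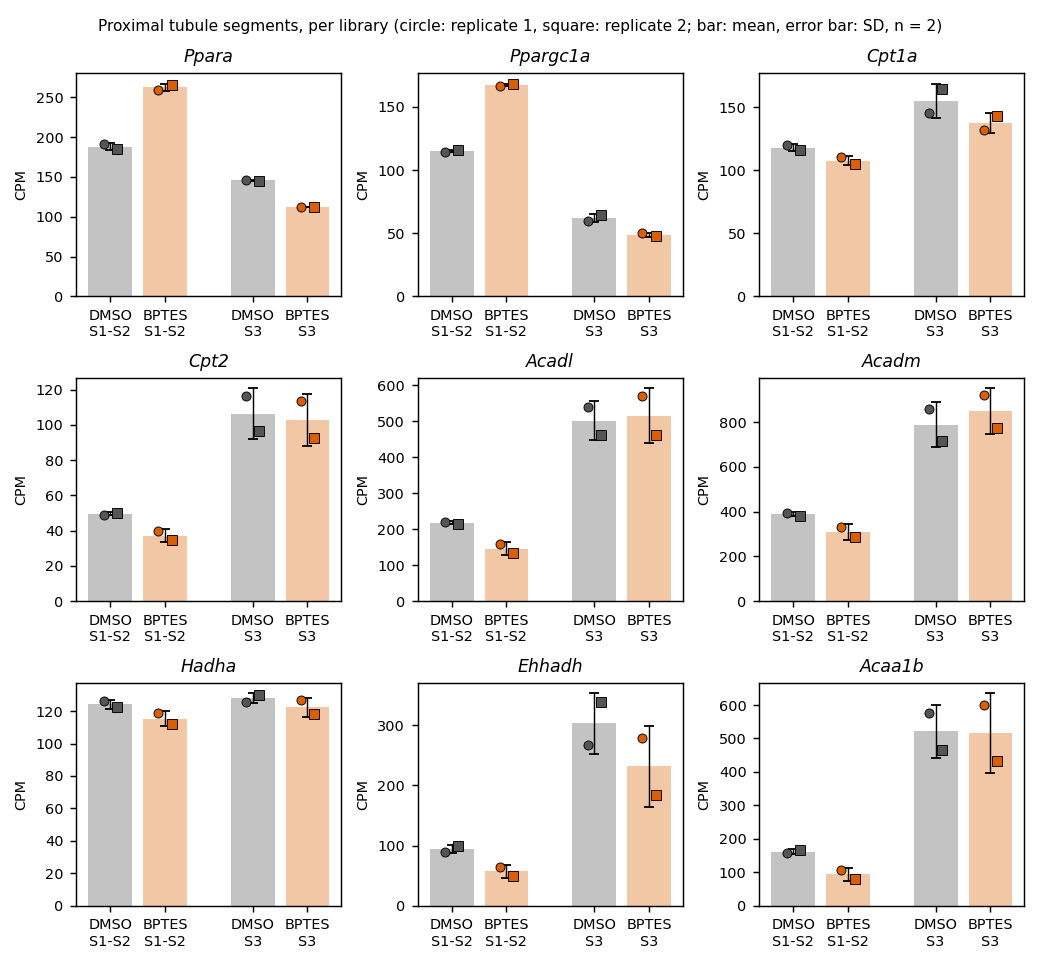
Level of each gene (vertical axis, CPM, from 0) in the DMSO and BPTES libraries of S1-S2 and S3 cells; circles are replicate 1, squares replicate 2, bars the mean and error bars the SD of 2 libraries. In S1-S2 the BPTES points of Ppara (259 and 265 CPM) and Ppargc1a lie above the DMSO points and those of Cpt2, Acadl, Ehhadh and Acaa1b below, and in S3 the Ppara points lie in the opposite order.

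The S1-S2 calls changed when single libraries were left out and when the cells were clustered anew with predicted doublets kept. Without BPTES replicate 2, which had the highest mitochondrial share, 0 of the 9 genes and 7 of 16076 genes (0.0435%) passed, with Ppara at 0.50 and Acaa1b at -0.56. Cpt2 was also lost without DMSO replicate 2 (edgeR adjusted p 0.107), and with predicted doublets kept and the cells clustered anew only Ppara (0.50, edgeR adjusted p 0.0458) and Ppargc1a (0.64, edgeR adjusted p 0.0314) of the 9 passed, where 1.97% of all genes were called. That clustering moved 55.9% of the 3658 S3 cells into S1-S2, and predicted doublets were 3.64% of S1-S2 and 0% of S3 in it, so doublets and segment make-up changed together. The median mitochondrial share of a cell was 18.7% and 22.6% under BPTES and 12.6% and 17.1% under DMSO. At a limit of 25% per cell the same 6 genes and Acadm passed, where 18% of all genes were called. The same 6 genes passed without the clusters over 20% mitochondrial (16% of all genes called) and without mitochondrial genes in the counts (12.6%). Malat1 had 36506 and 35399 CPM against 28843 and 31712. The 7 macrophage markers summed to 15.2 and 12.8 CPM against 26.6 and 31.8 and the 6 plasma cell markers to 25.6 and 46.7 against 7.34 and 7.30 (7 of 7 lower and 3 of 6 higher in both BPTES libraries), with 0 of either list at 0, and their part in the result was not tested. The 6 injury markers summed to 720 and 783 CPM against 945 and 1234, and all 6 were lower in both BPTES libraries.

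The mix of clusters within S1-S2 differed between the libraries. The Malat1-rich clusters held 30.1% and 25.9% of S1-S2 cells under BPTES and 26.2% and 24.3% under DMSO. Cluster 5, a Malat1-poor cluster with 348 CPM of Acaa1b and 408 of Acadl, held 12% and 12.1% against 19.0% and 20.8%. Its score for the S3 markers (mean of their scaled levels) was 0.31, beside 1.49 for the S1-S2 markers. The S3 score was -0.52, -0.31 and -0.68 in Malat1-poor clusters 0, 1 and 7, and 0.73 and -0.19 in the small clusters 48 and 50. The part of S3-like cells in the S1-S2 values was not tested. Clusters 0 and 1, with 70.3 and 95.2 CPM of Acaa1b, together held more of the BPTES libraries: 25.5% and 31.0% against 19.8% and 25.6% for cluster 0, and 21.6% and 25.9% against 17.5% and 16.6% for cluster 1. The comparison was therefore repeated within sets of clusters, an addition made after seeing the data.

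Within the Malat1-rich S1-S2 clusters, Ppargc1a was the only 1 of the 9 past the threshold, where 0.642% of 14479 genes were called. It had 318 and 332 CPM under BPTES against 238 and 241 for DMSO (log2 change 0.49, SE 0.08, edgeR adjusted p 0.0483). Ppara had 498 and 534 CPM against 403 and 407, also without overlap, and missed the threshold (0.40, SE 0.08, edgeR adjusted p 0.0794). Ehhadh had 54.5 and 41.0 CPM against 86.0 and 120, a log2 change of -1.06 (SE 0.23, edgeR adjusted p 0.114). Cpt2 (0.01), Acadm (-0.03) and Hadha (-0.03) lay near 0 there, and Acaa1b (-0.31) and Acadl (-0.27) were nearer 0 than over all S1-S2 cells.

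Within the Malat1-poor S1-S2 clusters, 0 of the 9 passed by edgeR, where 0.00744% of 13434 genes were called. The log2 fold change was -0.62 for Acaa1b (152 and 105 CPM under BPTES, 217 and 229 under DMSO), -0.36 for Acadl, -0.29 for Cpt2 and -0.27 for Ehhadh. It was 0.34 for Ppara (59.5 and 59.1 CPM against 59.5 and 47.5) and 0.31 for Ppargc1a (39.9 and 42.3 against 37.6 and 37.9). The Ppara values of 3 of these 4 libraries were nearly equal before scaling. Each of the 6 genes called over all S1-S2 cells kept its direction in both sets, except Cpt2, which was at 0.01 in the Malat1-rich set.

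With the same weight given to each of 7 S1-S2 clusters in every library, the regulators alone passed (limma, log2(CPM + 1), 1.57% of 11750 genes called). Ppargc1a was 0.37 higher (SE 0.06, limma adjusted p 0.0230) and Ppara 0.35 higher (SE 0.07, limma adjusted p 0.0367). Ehhadh (-0.52, limma adjusted p 0.0538), Acadl (-0.26, limma adjusted p 0.0982), Acaa1b (-0.45, limma adjusted p 0.111) and Cpt2 (-0.18, limma adjusted p 0.210) did not. These values differ from those over all S1-S2 cells in model, scale and cluster weights at once, so the sizes are not compared. Fitted in each of these 7 clusters alone, only Ehhadh and Ppargc1a passed, both in the Malat1-rich cluster 22, where 3.61% of 9961 genes were called (1.13%, 0.808%, 0.365%, 0.0432%, 0.416% and 1% in clusters 0, 1, 2, 5, 7 and 11). The values were those of Ehhadh (-0.73, edgeR adjusted p 0.0155) and Ppargc1a (0.57, edgeR adjusted p 0.0302).

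**Figure D4:**
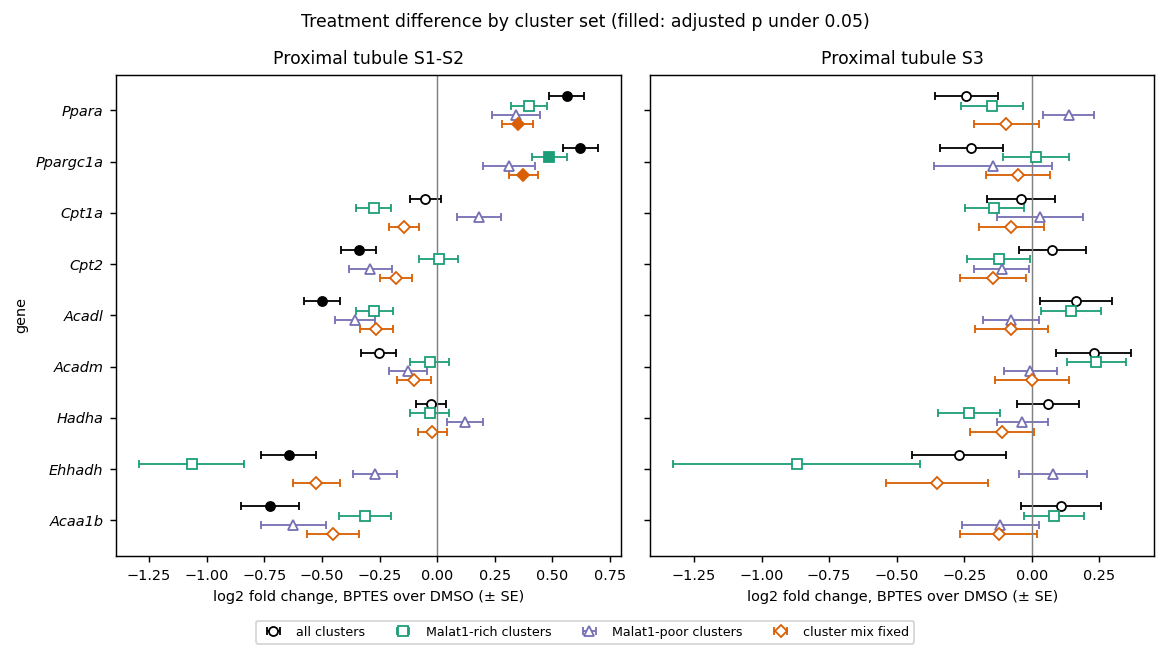
Log2 fold change of BPTES over DMSO with its SE (horizontal axis) for each gene (vertical axis) in S1-S2 (left) and S3 (right), over all clusters, the Malat1-rich or Malat1-poor clusters alone, and with the cluster mix fixed; filled symbols have an adjusted p under 0.05. In S1-S2 Ppara runs from 0.56 over all clusters to 0.34 in the Malat1-poor set, and in S3 no symbol is filled.

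S3 cells showed 0 of the 9 genes past the threshold, by edgeR (3.42% of 13452 genes called) or by DESeq2 (2.19%). At an unadjusted edgeR p under 0.05 the count was also 0, beside 17.2% of all genes. Ppara had 113 and 113 CPM under BPTES against 146 and 145 for DMSO, and Ppargc1a had 50.0 and 47.5 against 59.8 and 64.4. Both regulators were lower in each BPTES library, with log2 fold changes of -0.24 (SE 0.12, 95% interval -0.49 to 0.00, edgeR adjusted p 0.292) and -0.22 (SE 0.12, edgeR adjusted p 0.327). In the clustering with predicted doublets kept, S3 held 1601 cells after the move of the others into S1-S2. There the Ppara value turned to 0.23, and 0 of the 9 and 0.036% of all genes passed by edgeR. The enzymes that fell in S1-S2 had overlapping groups here. Acaa1b had 601 and 432 CPM against 576 and 465 (log2 change 0.11, SE 0.15), and Acadl 569 and 462 against 540 and 463 (0.16, SE 0.13). Ehhadh had 279 and 184 CPM against 267 and 339 (-0.27, SE 0.17), and Cpt2 113 and 92.5 against 116 and 96.4 (0.08, SE 0.12). Acadm, with 921 and 776 CPM against 860 and 718, had 0.23 (SE 0.14, edgeR adjusted p 0.401), and Hadha (0.06) and Cpt1a (-0.04) lay near 0. Without BPTES replicate 1, Ehhadh alone passed in S3 (edgeR adjusted p 0.0475), where 4.24% of all genes were called.

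The Malat1-rich cluster held 19.0% and 14.4% of S3 cells under BPTES and 25.3% and 28.8% under DMSO, without overlap, whereas in S1-S2 the shares of the groups overlapped. The Malat1 level in S3 was 16072 and 14454 CPM against 19604 and 22593. The 7 macrophage markers summed to 13.4 and 11.9 CPM in S3 against 25.4 and 26.7, the 6 injury markers to 45.5 and 104 against 497 and 416 and the 6 plasma cell markers to 19.3 and 36.6 against 5.38 and 4.75, and their part in the S3 values was not tested. Within the Malat1-rich S3 cluster Ppara had a log2 fold change of -0.15 and Ppargc1a of 0.02, and within the Malat1-poor S3 cluster 0.14 and -0.14. With the cluster mix fixed they had -0.09 and -0.05. None of these passed, where 0.36%, 0.0168% and 1.95% of all genes were called (edgeR and limma adjusted p of 0.682 or more).

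Whether the treatment difference itself differed between S3 and S1-S2 was tested with libraries as blocks. It did for 7 of the 9 genes, where 33% of 15314 genes were called. Relative to S1-S2, the BPTES difference in S3 was lower for Ppargc1a (-0.84, SE 0.10, edgeR adjusted p 7.98e-15) and Ppara (-0.80, SE 0.10, edgeR adjusted p 2.08e-14). It was higher for Acaa1b (0.84, SE 0.10, edgeR adjusted p 1.81e-15), Acadl (0.67, SE 0.10), Acadm (0.49, SE 0.09), Cpt2 (0.42, SE 0.10) and Ehhadh (0.37, SE 0.10). Hadha (0.09, SE 0.10) and Cpt1a (0.01, SE 0.10) did not pass. The SEs were nearly equal because the test shares spread across genes, so these p-values do not measure the spread of each gene alone. By library, the Acaa1b ratio of S3 over S1-S2 was 5.57 and 5.49 under BPTES against 3.67 and 2.79 for DMSO. Leaving out a library gave 5 to 7 of the 9 (19.3% and 23.4% of all genes called without BPTES replicates 1 and 2, 27.7% and 18.9% when DMSO replicates 1 and 2 were omitted), with Cpt2 lost without BPTES replicate 1 or DMSO replicate 2 and Ehhadh lost without BPTES replicate 1. In the clustering with predicted doublets kept, whose segments differ as given above, 4 of the 9 passed in a test added after seeing the data (3.62% of genes called): Ehhadh (0.96), Ppargc1a (-0.87), Acaa1b (0.60) and Acadl (0.41). Ppara (-0.23, edgeR adjusted p 0.417), Cpt2 (0.31) and Acadm (0.26) were lost. Within the Malat1-rich clusters 3 of the 9 passed (1.56% of genes called): Ppara (-0.51), Acadl (0.45) and Acaa1b (0.42), and Cpt2 turned to -0.10. Within the Malat1-poor clusters 3 passed (6.78% called): Ppargc1a (-0.46), Ehhadh (0.35) and Acadl (0.29).

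The other 95 genes of 6 fatty acid oxidation lists were counted the same way. The lists were chosen with earlier results of these data known, so their shares beside all genes are a description and no independent support. In S1-S2, 24 of the 90 tested were called, 5 higher and 19 lower, beside the 13% of all genes, and a median log2 change of -0.18 against -0.01 over all genes. Of 13 tested target genes of PPARA, 6 fell and 0 rose, with a median of -0.64. Among those that fell were Acot1 (-1.15), a cytosolic acyl-CoA thioesterase, Ucp2 (-1.14), a carrier of the inner mitochondrial membrane, and Cyp4a10 (-0.64), a fatty acid omega-hydroxylase. Acot1 had 30.4 and 17.8 CPM under BPTES against 57.5 and 54.8 under DMSO. Ucp2 was low, with 2.47 and 2.15 CPM against 6.28 and 4.45. Acot1 was lost without DMSO replicate 1 (edgeR adjusted p 0.295) and when DMSO replicate 2 was omitted (edgeR adjusted p 0.322). Ppara itself rose in the same S1-S2 sums, and also with the cluster mix fixed, as given above. Within the Malat1-rich or the Malat1-poor clusters alone it did not pass. Whether Ppara and these targets moved apart within the same cells was not tested. A lower median of the PPARA targets was not particular to S1-S2. It was -0.24 in S3 (12 tested, 1 called higher and 0 lower), -0.38 in thick ascending limb and -0.41 in macrophages. In distal convoluted tubule it was -0.01 and in collecting duct principal cells 0.08.

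Among the other lists in S1-S2, 5 of 18 genes of mitochondrial beta-oxidation fell and 0 rose, and 5 of 19 peroxisomal genes fell and 1 rose, counts that include Acadl, Ehhadh and Acaa1b and stand beside 5.61% of all genes lower and 7.4% higher. In the carnitine shuttle 2 of 6 fell, Cpt2 among them, and 1 rose. Of the uptake and activation list 3 of 17 fell, among them Fabp1 (-0.92) and Fabp5 (-0.81), carriers of fatty acids in the cytosol. Fabp1 was low in S1-S2, with 4.62 and 2.90 CPM under BPTES against 7.69 and 7.27 for DMSO. Fabp5 was low there too, with 1.90 and 1.44 CPM under BPTES against 3.23 and 2.96 for DMSO. In macrophages it had 9.67 and 10.4 CPM against 42.2 and 29.0. The part of stray macrophage RNA in the S1-S2 values was not tested. Of 26 regulators 5 rose and 2 fell, counts that include Ppara and Ppargc1a. In the clustering with doublets kept 5 of the other genes passed, beside 1.97% of all genes. In the Malat1-rich clusters 1 passed, in the Malat1-poor clusters 0 by edgeR, and with the mix fixed 2 by limma, beside 0.642%, 0.00744% and 1.57% of all genes. Without BPTES replicate 2, 1 passed by edgeR (0.0435% of all genes called).

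Over all proximal tubule cells 0 of 92 other genes passed by edgeR (22 at an unadjusted p under 0.05, beside 20.6% of all genes, and 10 by DESeq2, beside 7.03%). The smallest p-values upward were those of Slc22a5, the carnitine transporter (0.43, edgeR adjusted p 0.117), Nrf1 (0.34, 0.126) and Cyp4a12a (0.45, 0.126), and downward those of Fabp1 (-0.80, 0.120), Plin2 (-0.62, 0.131) and Acsl5 (-0.54, 0.150). Of these other genes 10 passed without BPTES replicate 1, 7 when DMSO replicate 1 was omitted and 3 when DMSO replicate 2 was, beside 3.64%, 10.5% and 6.72% of all genes in those fits. In S3, 8 of 89 were called, 3 higher and 5 lower, beside 3.42% of all genes. This count became 2 without DMSO replicate 1 (1.73% of all genes called) and 1 when DMSO replicate 2 was omitted (0.255%). The largest were Acacb (-2.16), the mitochondrial acetyl-CoA carboxylase, Fabp1 (-1.85), Cyp4a12a (0.98), Slc27a1 (-0.58), Acsl3 (-0.57) and Esrrg (-0.55). Fabp1 was low in S3, with 19 and 12 UMIs under BPTES against 109 and 48 for DMSO. Fabp1 was lost without DMSO replicate 1 (-1.08, edgeR adjusted p 0.282). Acacb rested on 6 and 2 UMIs under BPTES against 16 and 34 for DMSO, and Acacb and Slc27a1 were lost whichever library was left out (edgeR adjusted p 0.0839 to 0.608 and 0.0522 to 0.223). In the same fits Esrrg passed without BPTES replicate 1 alone, Acsl3 passed in 2 of 4, and Cyp4a12a was lost without DMSO replicate 2 (edgeR adjusted p 0.0513). Cyp4a12a, another omega-hydroxylase, had 140 and 158 CPM against 89.7 and 75.0, and Esrrg had 467 and 422 against 673 and 748.

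In the 11 classes outside the proximal tubule, 89 of 99 tests of the 9 genes could be made, and 0 passed by edgeR or DESeq2. By edgeR 13 had an unadjusted p under 0.05, beside 16% of the tests of all genes. Over all 14 classes tested, those of the proximal tubule included, DESeq2 called 3.95% of the tests of all genes. Of all genes, 6.23% were called in macrophages, 4.92% in dendritic cells, 0.647% in monocytes, 0.548% in endothelium, 0.342% in innate lymphoid cells, 0.266% in B cells, 0.258% in distal convoluted tubule, 0.241% in T cells, 0.131% in thick ascending limb, 0.0266% in collecting duct principal cells and 0% in neutrophils. Log2 fold changes ran from -0.62 to 1.62. The smallest adjusted p was that of Ppara in macrophages (1.43, edgeR adjusted p 0.0761), which rested on 35 and 25 UMIs under BPTES against 22 and 12 for DMSO, a share of the proximal tubule level below the marker median. The plotted fold changes by class showed positive values for 9 of 9 genes in thick ascending limb, 8 of 9 in distal convoluted tubule and 8 of 8 in collecting duct principal cells. Their medians were 0.30, 0.31 and 0.33, beside medians of 0.00, -0.02 and -0.00 over all genes.

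**Figure D5:**
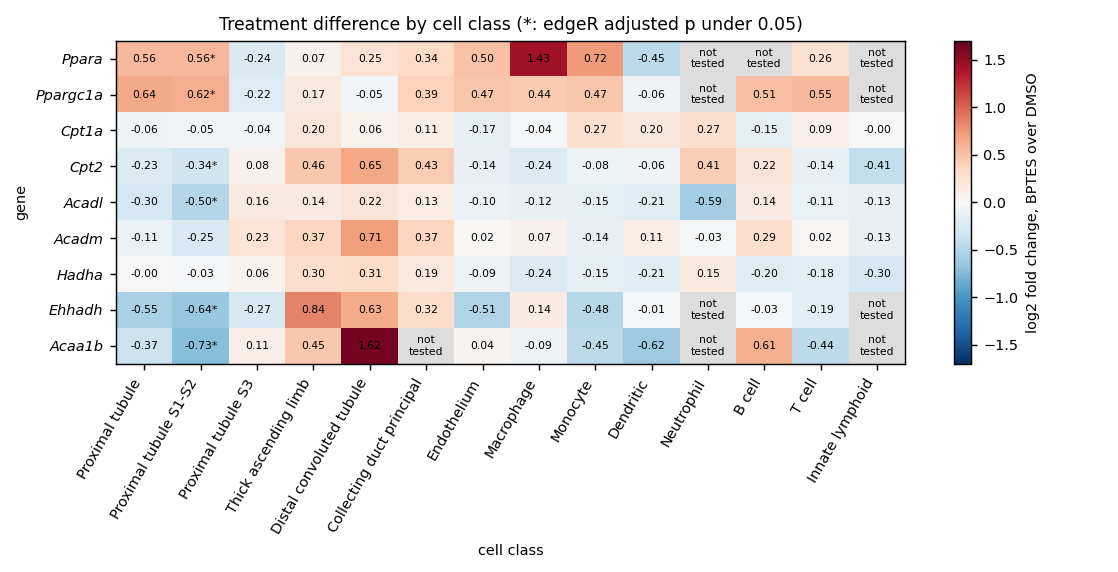
Log2 fold change of BPTES over DMSO (colour and number) of the 9 genes (vertical axis) in all proximal tubule cells, its S1-S2 and S3 segments and 11 other classes (horizontal axis); an asterisk marks an edgeR adjusted p under 0.05 and grey cells were not tested. The 6 asterisks all stand in S1-S2.

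Acadm had 303 and 233 CPM in distal convoluted tubule under BPTES and 212 and 147 under DMSO (log2 change 0.71, SE 0.22, edgeR adjusted p 0.164). Cpt2 in the same cells had 28.1 and 28.9 CPM against 21.3 and 18.7 (0.65, SE 0.23, edgeR adjusted p 0.208). Ehhadh in thick ascending limb had 20.8 and 16.7 CPM against 12.5 and 11.3 (0.84, SE 0.31, edgeR adjusted p 0.541), on 52, 28, 28 and 55 UMIs. In these examples each BPTES library was above each DMSO library. The proximal tubule markers also differed, with a median in thick ascending limb of 6.49% and 5.06% of their proximal tubule level under BPTES and 5.44% and 3.02% under DMSO, and in distal convoluted tubule of 4.76% and 3.64% against 2.42% and 1.79%. Cells of DMSO replicate 2 were deeper, with a median of 8668 UMIs in thick ascending limb against 3156 to 3876 in the other libraries. In distal convoluted tubule it was 6750 against 1936 to 2323. Each class pooled a shallow and a deep cluster. In distal convoluted tubule cluster 33 (median 18740 UMIs) held 52 and 42 cells under BPTES and 56 and 173 under DMSO. Cluster 14 there (1554 UMIs) held 309 and 262 against 160 and 210. In thick ascending limb cluster 35 (23110 UMIs) held 73 and 42 against 52 and 118. Cluster 19 there (2421 UMIs) held 221 and 161 against 211 and 191. The part of the markers, the depth or this mix in these values was not tested.

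Between thick ascending limb and all proximal tubule cells the treatment difference was tested directly, and 1 of the 9 genes passed, where 0.367% of 16622 genes were called. This was Ehhadh, whose difference was 1.40 higher in thick ascending limb (SE 0.27, edgeR adjusted p 0.00983). It was lost without DMSO replicate 2 (1.04, edgeR adjusted p 0.115), where 2 others of the 9 passed and 1.13% of all genes were called. Omitting DMSO replicate 1 left 3 of the 9 past the threshold, where 3.88% of all genes were called. Omitting BPTES replicate 1 or BPTES replicate 2 left 1, where 0.66% and 0.631% were. Between macrophages and proximal tubule 0 of the 9 passed by edgeR (3 at an unadjusted p under 0.05, beside 15.7% of all genes, and 0.997% of 17552 genes called), and this difference was not run in DESeq2. Without DMSO replicate 1, 2 of the 9 passed there, where 7.75% of all genes were called.

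Of the other genes on the lists, 8 of 814 tests in these 11 classes were called, beside 1.42% of the 127208 tests of all genes there, a share no higher than that of all genes. Macrophages had 4 of them, of 84 tested beside 6.23% of all genes, Fabp5 (-1.84), Acsm2 (1.02), Dbi (-0.47) and Acaa1a (-0.33). T cells had Pparg (-3.06) and Acsm2 (0.85), endothelium Pparg (0.70) and dendritic cells Sirt1 (0.53). Pparg, a nuclear receptor of the same family as Ppara, had 1.20 and 0.720 CPM in T cells under BPTES against 5.80 and 10.4 under DMSO, and in endothelium 149 and 160 against 102 and 89.5. Acsm2, a medium-chain acyl-CoA synthetase of the proximal tubule, had 57.1 and 63.1 CPM in macrophages against 30.0 and 28.9. In T cells it had 68.9 and 57.8 CPM against 33.0 and 38.2. The median of the 20 proximal tubule markers in macrophages moved the same way, at 2.08% and 2.02% of their proximal tubule level against 1.51% and 1.09%. In T cells the marker median was 1.74% and was not compared between the groups. The part of free proximal tubule RNA in the Acsm2 values was not tested in either class.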

How the data were processed

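Droplet 3' libraries were aligned and counted by the authors with Cell Ranger 8.0.1 on mm10, per the submitters' processing notes, and the deposited matrices hold counts, each a number of UMIs for 1 gene in 1 barcode. Barcodes with at least 500 UMIs, at least 300 genes and at most 50% mitochondrial UMIs were kept (50605 of 76278). Scrublet scores, computed in scanpy 1.11.5, removed 0.4% of barcodes per 1000 barcodes as doublets (3867), since the caller's own threshold marked only 433. Cells were clustered on 3000 variable genes, 40 components and 15 neighbours (Leiden resolution 1), leaving out mitochondrial genes and the 104 listed fatty acid genes. Of 57 clusters, 52 were named from markers, and 5 with 8.00% of cells stayed unnamed. Counts were summed per library and class (at least 50 cells in each library) and tested with edgeR 4.0.16 (quasi-likelihood, TMM, filterByExpr, Benjamini-Hochberg over all genes of a class, threshold 0.05). A simulation on the proximal tubule sums (16407 genes) recovered 82% of genes lowered and 66% of genes raised by 1 on the log2 scale. It made 17 false calls of 175, a share above the threshold of 0.05. Changes smaller than 1 and the S1-S2 sums were not simulated, so recovery at the sizes seen for the 9 genes is not known. DESeq2 1.42.0 and limma 3.58.1 served for alternatives. Within a class, genes named outside the 9 were those of the lists past the threshold with the largest change (at most 6) or, with none past it, the 3 smallest p-values in each direction. Members and lists were chosen with earlier results of these data known. The cluster sets by Malat1, the fits of single clusters, the fixed cluster mix, and the S3 minus S1-S2 test with doublets kept were added after seeing the data. A pathway gene that the naming rule selects is not reported here.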

Additional observations from a re-analysis of the deposited data

Results flagged for a closer look

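The treatment difference itself differed between S3 and S1-S2 for 7 of the 9 genes, against 33% of all genes tested (edgeR quasi-likelihood test with libraries as blocks). This test shares spread across genes, so its p-values do not measure the spread of each gene alone. As S3 minus S1-S2 on the log2 scale, the values were -0.84 for Ppargc1a (SE 0.10, edgeR adjusted p 7.98e-15), -0.80 for Ppara (SE 0.10, edgeR adjusted p 2.08e-14), 0.84 for Acaa1b (SE 0.10, edgeR adjusted p 1.81e-15), 0.67 for Acadl (SE 0.10, edgeR adjusted p 3.95e-10), 0.49 for Acadm (SE 0.09, edgeR adjusted p 4.67e-06), 0.42 for Cpt2 (SE 0.10, edgeR adjusted p 0.000177) and 0.37 for Ehhadh (SE 0.10, edgeR adjusted p 0.000861). The Malat1 level moved in opposite directions in the 2 segments, up under BPTES in S1-S2 and down in S3. Within Malat1-rich or Malat1-poor clusters 3 of the 7 genes passed in each, where 1.56% and 6.78% of all genes were called. With predicted doublets kept and the cells clustered anew, which also moved 55.9% of S3 cells into S1-S2, 4 of the 7 passed. There 3.62% of all genes were called, and Ppara did not pass (-0.23, edgeR adjusted p 0.417).

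The treatment difference of Ehhadh was 1.40 higher in thick ascending limb than in proximal tubule (SE 0.27, edgeR adjusted p 0.00983). It rested on 28 to 55 UMIs a library in thick ascending limb and was lost without DMSO replicate 2 (1.04, edgeR adjusted p 0.115). The proximal tubule markers in thick ascending limb had a median of 6.49% and 5.06% of their proximal tubule level under BPTES, with 5.44% and 3.02% for DMSO, and their part in the difference was not tested.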

How the results depend on the processing

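Over all 14 classes tested, 6 tests of the 9 genes passed (2.49% of tests of all genes), 12 without the low-count filter (5.16%) and 0 to 17 with a library left out (0.549% to 6.69%). In all proximal tubule cells the count was 0, against 2 without the filter (1.93% of all genes), 2 by DESeq2 (7.03%), 1 in Malat1-rich clusters (1.04%) and 0 to 3 with a library left out. In S1-S2 it was 6 (13% of all genes), against 2 with doublets kept (1.97%) and 2 with the cluster mix fixed (1.57%). There it was 1 in Malat1-rich clusters (0.642%) and 0 in Malat1-poor clusters (0.00744%). The share of all genes fell as well in each of these settings. In S3 it was 0 (3.42%). Both counts also depended on single libraries, as given above. For the treatment differences between classes, leaving out a library gave 1 to 3 for thick ascending limb and 0 to 2 for macrophages, each against proximal tubule. For S3 against S1-S2 the count of 7 (33% of all genes) became 3 in Malat1-rich clusters (1.56%). It became 3 in Malat1-poor clusters (6.78%) and 4 with doublets kept (3.62%).

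For the other listed genes, the 40 calls over 14 classes became 119 without the filter, 69 by DESeq2 (3.95% of tests of all genes), 22 with doublets kept (1.37%) and 15 to 102 with a library left out. In all proximal tubule cells 0 (0.0549% of all genes) became 10 by DESeq2 (7.03%), and the count also moved when a library was left out. In S1-S2, 24 became 41 without the filter (17.7% of all genes), 5 with doublets kept, 1 and 0 in Malat1-rich and Malat1-poor clusters, 2 with the mix fixed and 1 to 28 with a library left out. In S3, 8 (3.42% of all genes) became 1 with doublets kept (0.036%) and 4 with the mix fixed (1.95%). In Malat1-rich and Malat1-poor clusters of S3 it became 1 and 0 (0.36% and 0.0168%). This count also moved when a library was left out.

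With the replicate number as a block, 11 tests of the 9 genes passed over 14 classes (2 in all proximal tubule, 5 in S1-S2, 2 in S3), and 128 of the other genes (8, 50 and 31), beside 7.46% of tests of all genes (6.3%, 36.1% and 17.7%). The deviations of same-numbered libraries correlated at 0.275 in proximal tubule, 0.308 in S1-S2 and 0.262 in S3 across genes, but the labels give no shared origin and there are only 2 pairs, so the libraries are taken to share a number only.

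Log2 fold changes turned direction as follows, none of them past the threshold over all cells of the class except Cpt2 and Fabp5 in S1-S2, Esrrg in S3 and the S3 minus S1-S2 difference of Cpt2. In Malat1-poor clusters they were 0.14 for Cpt1a, 0.0898 for Hadha and -0.19 for Nrf1 in all proximal tubule, 0.18 for Cpt1a and 0.12 for Hadha in S1-S2. In Malat1-rich S1-S2 clusters they were 0.0069 for Cpt2 and 0.0077 for Fabp5. In Malat1-poor S3 cells they were 0.14 for Ppara, 0.031 for Cpt1a, -0.11 for Cpt2, -0.0062 for Acadm, -0.076 for Acadl, 0.080 for Ehhadh, -0.035 for Hadha, -0.12 for Acaa1b and 0.13 for Esrrg. In Malat1-rich S3 cells they were 0.016 for Ppargc1a, -0.12 for Cpt2 and -0.23 for Hadha. With the mix fixed in S3 they were -0.14 for Cpt2, -0.075 for Acadl, -0.11 for Hadha and -0.12 for Acaa1b. With doublets kept, where clustering anew moved 55.9% of S3 cells into S1-S2 and left 1601, the values were 0.23 for Ppara, -0.081 for Cpt2, -0.0022 for Acadm, -0.073 for Acadl, 0.10 for Ehhadh, -0.030 for Hadha, -0.085 for Acaa1b and 0.13 for Esrrg. Hadha in all proximal tubule was 0.011 by RLE scaling and 0.011 by DESeq2. With a library left out, Acadm (-0.24 to 0.038) and Hadha (-0.016 to 0.034) in all proximal tubule, and Cpt1a (-0.13 to 0.060), Cpt2 (-0.047 to 0.22) and Acaa1b (-0.11 to 0.31) in S3, crossed 0. Of the differences between classes, thick ascending limb minus proximal tubule ran from -0.96 to 0.11 for Ppara and from -0.026 to 1.07 for Acaa1b. S3 minus S1-S2 ran from -0.060 to 0.12 for Cpt1a, which was -0.011 without the filter and -0.15 in Malat1-poor clusters. The same difference was -0.10 for Cpt2 in Malat1-rich clusters, and for Hadha -0.17 in Malat1-rich and -0.14 in Malat1-poor clusters. The cause was not tested.

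With 2 libraries a group, an exact permutation test cannot go below p = 0.333, so each call rests on spread shared across genes. Intercalated cells, fibroblasts and other small classes were not tested.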
